A study of Rattus norvegicus with 6 samples.

Results

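Glycolytic enzymes convert glucose to pyruvate in the cytosol, and 10 genes of this pathway were followed here in replicating and quiescent rat β-cells. They were taken by name and not by their measured values, though with earlier results of these data known: *Hk1*, *Hk2*, *Pfkl*, *Pfkm*, *Pfkp*, *Aldoa*, *Gapdh*, *Pgk1*, *Eno1* and *Pkm*. All 10 were on the array, among 20175 genes with a RefSeq name, and 23 of its 45598 probes carried their names. Hexokinases trap glucose in the cell as glucose 6-phosphate, phosphofructokinase commits it to glycolysis, and pyruvate kinase closes the pathway. The high-affinity hexokinases are known to be held at low levels in mature β-cells, which lets the glycolytic rate follow blood glucose. In many other cell types high-affinity hexokinases and a raised glycolytic rate accompany proliferation.

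Islets of young adult male Wistar rats, 4 rats per preparation, were cultured overnight at 5.5 mM glucose with 10 µM EdU, a thymidine analogue that cells take up while they copy DNA. The dispersed cells were stained with Newport Green, which binds zinc, and were then fixed and permeabilized. Cells of high size, granularity and Newport Green signal were sorted into an EdU-positive (replicating) and an EdU-negative (quiescent) fraction. The 3 preparations gave 6 samples, 1 of each fraction per preparation, all hybridized in Cy3 on 1 slide after whole transcriptome amplification. Both fractions thus came from the same pooled animals and carried the same glucose, EdU, stain and fixation, and each value is an average over many cells, in which fewer cells with an mRNA and less of it per cell cannot be told apart. The fractions were not alike in amount, since the paper reports far fewer cells and far less RNA before amplification for the replicating one. This difference runs along with the comparison, and its part in the ratios was not tested.

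Several facts of the arrays bear on every value below. Between 80.7% and 98.4% of probes were well above background on each array, and no spot was saturated. The array of quiescent β-cells of preparation 2 stood apart most, with a Pearson's r across probes of 0.83 and 0.65 with the other quiescent arrays, whereas the replicating arrays had an r of 0.97 to 0.99 with each other. The quiescent array of preparation 1 had an r of 0.83 to 0.89 with every other array. That of preparation 3 had an r of 0.94 to 0.97 with the replicating arrays, but of 0.87 and 0.65 with the other quiescent arrays. The quiescent arrays were thus unlike each other. A probe was called, after the study's thresholds, at an unadjusted p of at most 0.05 with a log2 ratio, replicating over quiescent, of at least 1 or at most -1. All 8 cycling markers were called higher in the replicating cells, with a median log2 ratio of 3.50, when 5.31% of all genes were called higher and 3.11% lower. The β-cell markers were present, with log2 ratios of 0.25 and 0.42 for the insulin genes *Ins1* and *Ins2*, neither of them called. By quantitative PCR, however, the paper reports lower *Ins2* expression in the replicating cells. Over 10 of the β-cell markers 6 were below 0, the median was -0.31 and the transcription factor gene *Mafa* was called lower at -1.01. Markers of other cell types also differed between the fractions. All 12 fibroblast and stellate cell markers had a ratio above 0 and 4 of them were called, with the log2 of their summed signal between 13.81 and 15.34 on the replicating and between 12.46 and 12.74 on the quiescent arrays. Of 8 alpha cell markers 5 were above 0 and 2 were called, with a median of 0.58 and a log2 ratio of 2.39 for the glucagon gene *Gcg*. Of 4 delta cell markers 3 were above 0 and 2 were called, with 1.74 for the hormone gene *Sst* and -0.93 for *Ghsr*. The PP cell hormone gene *Ppy* was called at 1.21, and of 6 immune cell markers 5 were above 0 and 2 were called. Of 7 acinar cell markers 5 were above 0 and 1 was called, and of 6 endothelial cell markers 4 were above 0 and none was called. All 6 duct cell markers were below 0, with a median of -0.38, and none was called. Over all genes, 9633 of 20175 had a ratio above 0. The part of these cells in the ratios of the glycolytic enzymes was not tested.

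None of the 10 glycolytic enzymes, each read by its brightest probe, differed between replicating and quiescent β-cells past the thresholds used. The log2 ratio, replicating over quiescent, was above 0 for 8 of them and below 0 for *Hk2* and *Pfkl*, with a median of 0.56 and a range from -1.34 to 0.79. By these thresholds 0 enzymes were called, when 5.31% of all genes were called higher and 3.11% lower. The dimmer of the 2 *Hk2* probes, which was not used in this count, was called higher at 1.39. In limma with Benjamini-Hochberg adjustment the smallest adjusted p among the 23 probes was 0.475, and across the whole array 0% of probes passed (0 of 45598, with a smallest adjusted p of 0.0977 and 4379 probes at an unadjusted p under 0.05).

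The median over the 10 enzymes was a log2 ratio of 0.39, 0.45 and 0.43 in preparations 1, 2 and 3, against 0.04, 0.01 and -0.05 over all genes (-0.04 in the pooled comparison). In these preparations 8, 6 and 6 of the 10 enzymes were above 0, as were 10477, 9961 and 8848 of all 20175 genes. The pooled median of 0.56 was 0.30 without preparation 2. On the processed signal it was 0.32, where the median over all probes was -0.71, against -0.07 in the main fit. Over the 5044 genes with the highest mean signal, the median was 0.20, with 0.22, 0.42 and -0.09 in the 3 preparations. *Aldoa*, *Gapdh*, *Eno1* and *Pkm* had a ratio above 0 in all 3 preparations, 4 of 10 against 16.8% of all genes. *Pfkl* alone was below 0 in all 3, as were 19.7% of all genes. The lowest replicating array lay above the highest quiescent array for *Gapdh* and *Pkm*, 2 of 10 against a background of 10.1%, on the representative probe alone of each gene, and the reverse held for *Pfkl*, 1 of 10 against 6.6%. Among the 5044 genes with the highest mean signal, 1182 were above 0 and 781 below 0 in all 3 preparations. All replicating arrays lay above all quiescent ones for 777 of these 5044 genes and below them for 214. With counts this small among 10 genes, no share was set apart from its background by a test.

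**Figure D1:**
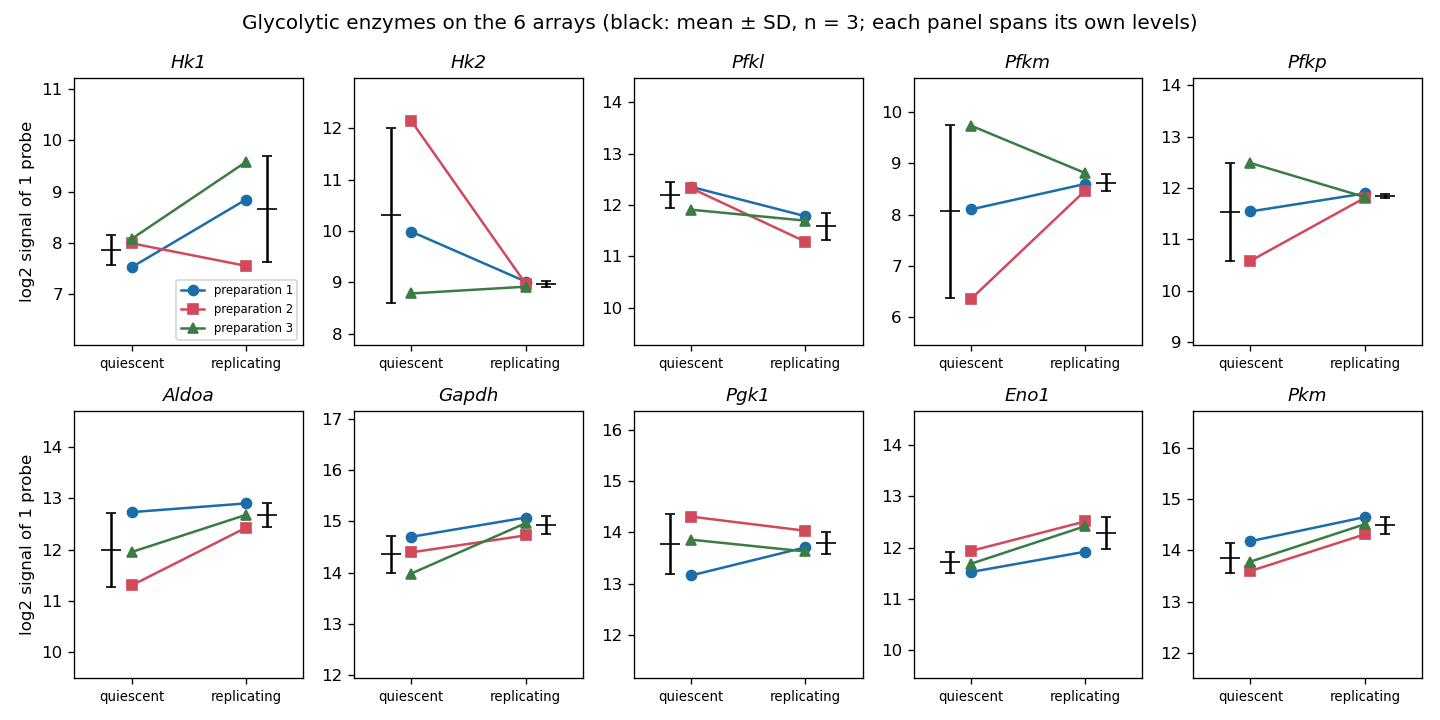
Log2 signal of the representative probe of each of the 10 enzymes (y axis, a separate range of levels in each panel) in quiescent and replicating β-cells, with lines joining the 2 arrays of 1 islet preparation and black bars for mean ± SD (n = 3). The 3 lines slope upward for *Aldoa*, *Gapdh*, *Eno1* and *Pkm* and downward for *Pfkl*, and the lines of the other 5 enzymes slope both ways.

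Hexokinase 1 (*Hk1*) is the widely expressed high-affinity hexokinase that binds the outer mitochondrial membrane. For preparations 1, 2 and 3 in this order, its log2 signal was 8.85, 7.55 and 9.58 in replicating cells and 7.53, 7.99 and 8.08 in quiescent cells. The replicating array was the higher one in preparations 1 and 3 and the lower one in preparation 2, so that the groups overlapped. The fitted log2 ratio was 0.79 with a standard error of 0.49 (95% confidence interval -0.45 to 2.04). Without preparation 2 it was 1.41 and was called, with an unadjusted limma p of 0.00877. For this probe the quiescent array of preparation 2 (7.99) lay between the other quiescent arrays. Its replicating array (7.55) was the one that lay below the other replicating arrays. *Hk1* had 1 probe, starting at base 2686 of its transcript, and its sequence is shown because it has no given genome position on rn4 (no capitals):
Hk1: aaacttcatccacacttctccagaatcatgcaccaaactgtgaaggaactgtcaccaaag

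Hexokinase 2 (*Hk2*), the isoform that growth signals and insulin induce in muscle and fat, was measured by 2 probes whose ratios had opposite signs. The dimmer probe lies at chr4:116924279-116924338 (rn4, minus strand), and its last 30 bases are shown because it was the only probe of these enzymes past both thresholds (no capitals):
Hk2, dimmer probe: ctagttgaaattaaccatgtgatgttaact

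On the brighter *Hk2* probe the replicating arrays read 9.01, 8.97 and 8.91 and the quiescent arrays 9.98, 12.14 and 8.78 in preparations 1, 2 and 3. The replicating arrays were nearly level, and the ratio followed the quiescent arrays, with the highest value on the array that stood apart. The log2 ratio was -1.34 with a standard error of 0.68 (95% confidence interval -3.06 to 0.38), and without preparation 2 it was -0.42. On the dimmer probe the replicating arrays read 8.90, 7.90 and 8.37 and the quiescent arrays 6.69, 6.09 and 8.21. Each replicating array was above its own quiescent partner, although the groups overlapped. This gave a log2 ratio of 1.39 with a standard error of 0.49 (95% confidence interval 0.14 to 2.65).

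The dimmer *Hk2* probe was the only one of the 23 probes past both thresholds, where 4.44% of all probes were called higher and 4.18% lower. Its unadjusted limma p was 0.0358 and its adjusted p by Benjamini-Hochberg 0.475. The call was lost without the preparation block, on Feature Extraction's processed signal, and without preparation 1 or 2, with log2 ratios of 1.39, 1.49, 0.99 and 1.19 in these fits. The 2 probes differed in their log2 ratio by 3.18, 4.98 and 0.03 in the 3 preparations, a mean of 2.73 ± 2.51 (SD, n = 3), and an exact two-sided sign permutation gave p = 0.25, the smallest that 3 preparations allow.

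**Figure D2:**
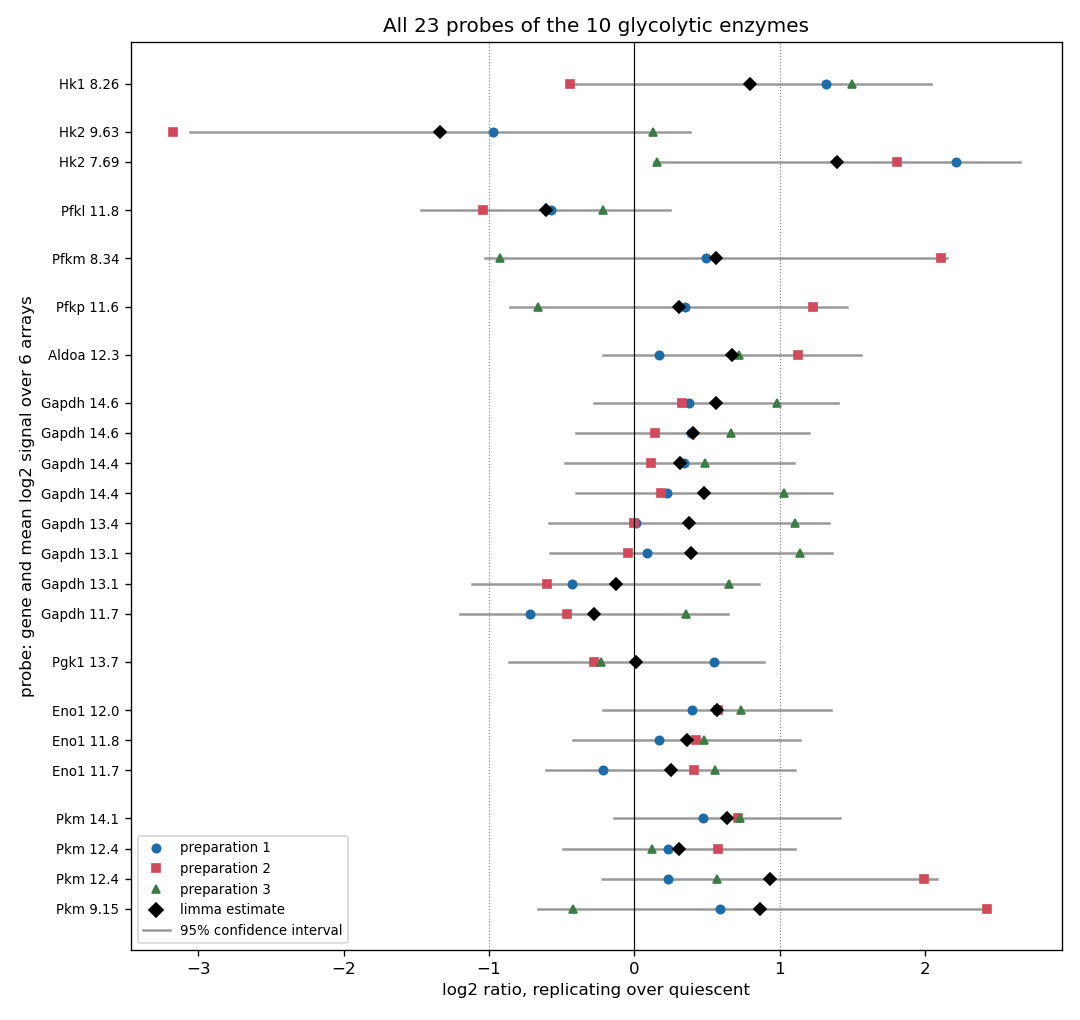
Log2 ratio, replicating over quiescent, of all 23 probes (x axis), labelled by gene and mean log2 signal over 6 arrays (y axis), with 1 coloured point per preparation, a black diamond for the limma estimate and a grey line for its 95% confidence interval. The interval of the dimmer *Hk2* probe (0.14 to 2.65) lies above 0, and the brighter *Hk2* probe lies on the other side at -1.34.

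Phosphofructokinase makes fructose 1,6-bisphosphate, the committed step of glycolysis, and assembles from liver (*Pfkl*), muscle (*Pfkm*) and platelet (*Pfkp*) subunits. *Pfkl* read 11.78, 11.29 and 11.70 on the replicating arrays and 12.36, 12.33 and 11.91 on the quiescent arrays (chr20:11032281-11032340, rn4, plus strand). All 3 replicating arrays lay below all 3 quiescent arrays. The log2 ratio was -0.61 with a standard error of 0.34 (95% confidence interval -1.47 to 0.25), with -0.57, -1.04 and -0.21 in the 3 preparations and -0.39 without preparation 2.

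*Pfkm* (chr7:136845936-136845995, plus strand) read 8.60, 8.47 and 8.81 in replicating and 8.10, 6.35 and 9.74 in quiescent cells. Here too the replicating arrays were close together while the quiescent arrays spanned a wide range, above and below them. The log2 ratio of 0.56 (standard error 0.62) therefore joined 0.50, 2.11 and -0.93 in the 3 preparations, and turned to -0.21 without preparation 2.

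*Pfkp* (chr17:74822966-74823025, plus strand) had the same pattern, with 11.90, 11.81 and 11.83 on the replicating and 11.55, 10.58 and 12.49 on the quiescent arrays. Its log2 ratio was 0.31 with a standard error of 0.45. It was -0.16 without preparation 2 and -0.01 with cyclic loess in place of quantile normalization. Neither subunit had a direction that all preparations shared.

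Whether isoenzymes of 1 step had unequal ratios was asked within each preparation for 4 pairs, with exact two-sided sign permutations that cannot give a p under 0.25. The log2 ratio of *Hk2* on its brighter probe was below that of *Hk1* by 2.29, 2.73 and 1.37, which as *Hk2* minus *Hk1* is a mean of -2.13 ± 0.70 (SD, n = 3, 95% confidence interval -3.86 to -0.40, exact p = 0.25, adjusted p = 0.667). That difference rests on the choice of *Hk2* probe, since the dimmer one had a ratio of 1.39. *Pfkl* minus *Pfkm* had a mean of -1.17 with an interval from -5.98 to 3.64 (exact p = 0.5), and *Pfkl* minus *Pfkp* one of -0.91 with an interval from -4.30 to 2.47 (exact p = 0.5). For *Pfkm* minus *Pfkp* the mean was 0.26 and the interval -1.19 to 1.70 (exact p = 0.75). The intervals of the phosphofructokinase pairs all held 0 and were wide, so that differences of over 1 in either direction could not be told from none.

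Aldolase A (*Aldoa*) splits fructose 1,6-bisphosphate and is the isoform of muscle and of most other tissues. Its log2 signal was 12.90, 12.43 and 12.68 in replicating and 12.73, 11.30 and 11.95 in quiescent β-cells (chr1:185972062-185972121, minus strand). Each replicating array was above its quiescent partner, by 0.17, 1.12 and 0.72, and the groups overlapped because the quiescent array of preparation 1 was high. The log2 ratio was 0.67 with a standard error of 0.35 (95% confidence interval -0.21 to 1.56).

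*Gapdh* encodes glyceraldehyde-3-phosphate dehydrogenase, which makes the first NADH of glycolysis and is often used as a reference gene. Its 8 probes lie within chr4:161282185-161283796 (rn4, minus strand). The probes starting at transcript positions 984 and 996 each span 170 bases of genome for 60 bases of sequence. The brightest, starting at 484, is placed by the files at chr4:161282185-161282218, a span of 34 bases for a probe of 60, away from the overlapping probe at 482 (chr4:161283260-161283319), so its match to the gene is uncertain. That probe read 15.07, 14.72 and 14.96 on the replicating arrays and 14.70, 14.39 and 13.98 on the quiescent arrays. On it all replicating arrays lay above all quiescent ones, while on the other 7 probes the groups overlapped. It had log2 ratios of 0.37, 0.33 and 0.98 in the 3 preparations. The fit gave 0.56 with a standard error of 0.33 (95% confidence interval -0.27 to 1.40), or 1.48-fold.

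The *Gapdh* probes did not all give this ratio. Across the 8 probes the log2 ratio ran from -0.28 to 0.56, with 6 above 0 and 5 higher in all 3 preparations. Several probes cover nearly the same bases of the transcript with slightly different sequences, printed here because they show how alike the probes are. Capitals mark the bases that differ between the overlapping probes of each pair, named by the start the files give on the transcript:
Gapdh 181: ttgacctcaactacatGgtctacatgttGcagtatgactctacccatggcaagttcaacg
Gapdh 192: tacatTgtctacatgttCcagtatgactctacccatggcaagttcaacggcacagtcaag
Gapdh 482: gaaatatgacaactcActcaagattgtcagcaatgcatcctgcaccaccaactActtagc
Gapdh 484: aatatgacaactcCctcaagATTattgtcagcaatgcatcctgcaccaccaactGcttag
Gapdh 984: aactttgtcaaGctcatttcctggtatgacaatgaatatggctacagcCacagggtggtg
Gapdh 996: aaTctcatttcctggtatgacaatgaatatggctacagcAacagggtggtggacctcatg
Aligned, each pair had 2 mismatches, over 49 bases for 181 and 192, 57 bases and a gap of 3 for 482 and 484, and 51 bases for 984 and 996. Of the 8 probes, 5 are also annotated with the transcript of a *Gapdh* pseudogene, those starting at 181, 192, 482, 484 and 1102. Those starting at 984, 996 and 1121 are not, and what each probe reads is uncertain.

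The pair from 984, which is not annotated with the pseudogene transcript, stood off from the other pairs, which are. The log2 ratio was 0.39 at 181 and 0.37 at 192, 0.48 at 482 and 0.56 at 484, and -0.28 at 984 and -0.13 at 996. That pair was below 0 in preparations 1 and 2 and above 0 in preparation 3, whereas the probes starting at 1102 and 1121 returned to 0.40 and 0.31. In preparation 3 the 4 probes starting at or before 484 gave ratios of 0.98 to 1.14, and the 4 from 984 onwards 0.35 to 0.67. A further 60 probes on the array are described as glyceraldehyde-3-phosphate dehydrogenase under other names. Their median log2 ratio was 0.19, they ran from -2.29 to 2.45, and 1 was called in each direction.

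**Figure D3:**
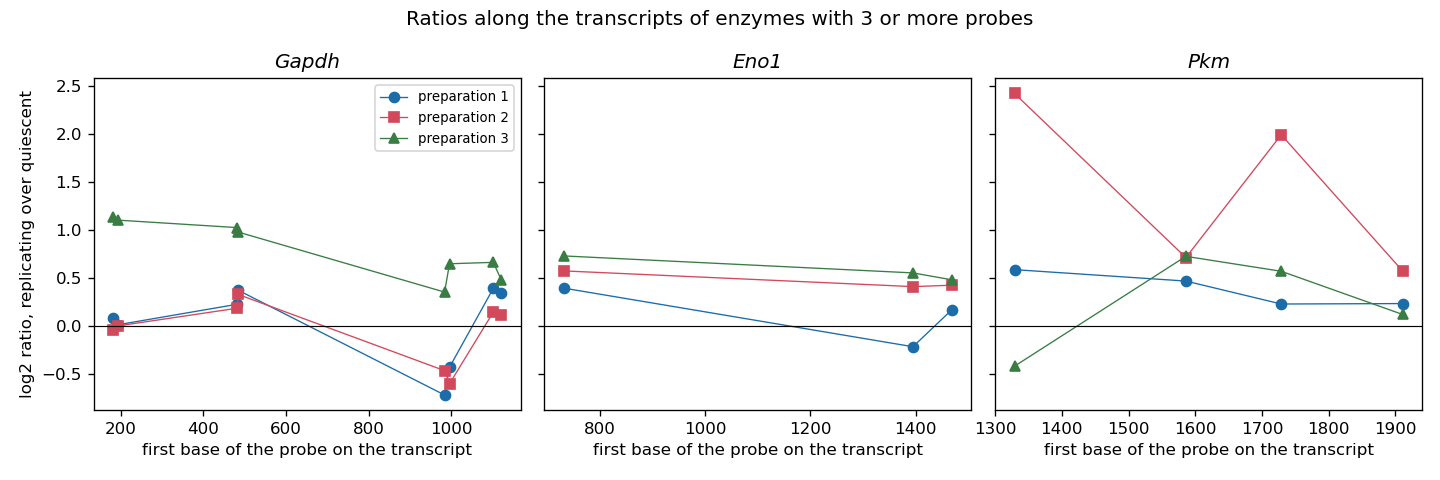
Log2 ratio, replicating over quiescent (y axis), against the first base of each probe on its transcript (x axis, in bases) for *Gapdh* (8 probes), *Eno1* (3) and *Pkm* (4), with 1 line per preparation. The *Gapdh* probes from 984 and 996 dip below 0 in preparations 1 and 2, and *Pkm* varies most in preparation 2.

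Phosphoglycerate kinase 1 (*Pgk1*), which makes the first ATP of the pathway, was level between the fractions on average. It read 13.71, 14.03 and 13.63 on the replicating and 13.16, 14.30 and 13.85 on the quiescent arrays (chrX:94340131-94340190, plus strand). The replicating array was the higher one in preparation 1 and the lower one in the other two. The log2 ratio of 0.01 had a standard error of 0.34 and a 95% confidence interval from -0.86 to 0.89, which allows a change of over 1.5 times either way.

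Enolase 1 (*Eno1*), which forms phosphoenolpyruvate, had 3 probes of 10 spots each. The brightest (chr5:167402355-167402413, plus strand) read 11.92, 12.51 and 12.42 in replicating and 11.53, 11.94 and 11.69 in quiescent cells. Each replicating array was above its partner, by 0.40, 0.58 and 0.73, and only the replicating array of preparation 1 lay within the range of the quiescent arrays. The log2 ratio was 0.57 with a standard error of 0.31 (95% confidence interval -0.22 to 1.35), and the other probes gave 0.36 and 0.25.

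Pyruvate kinase M (*Pkm*) yields the last ATP of the pathway and pyruvate, and its M2 splice form is known from proliferating cells. The brightest of its 4 probes (chr8:63507632-63507691, plus strand) read 14.65, 14.31 and 14.51 on the replicating arrays and 14.18, 13.60 and 13.78 on the quiescent arrays. The groups did not overlap on this probe but did on the other 3, and the log2 ratios of the preparations lay close together at 0.47, 0.71 and 0.73. The fitted ratio was 0.64 with a standard error of 0.31 (95% confidence interval -0.14 to 1.42), or 1.56-fold, with an unadjusted limma p of 0.0899. The other 3 probes gave 0.31, 0.93 and 0.87, and the last of these, at chr8:63504373-63504432, ranged from -0.42 in preparation 3 to 2.43 in preparation 2. The probes were not assigned to splice forms.

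For the 5 probes of *Eno1* and *Pkm* with 10 spots, the SD of the spots of 1 array was 0.06 to 0.23 on the log2 scale, and the SD between the 3 arrays of a group was 0.17 to 0.57, larger for each probe than that of its spots. All 23 probes were well above background on all 6 arrays. Their GC content was between 35% and 55%, and was lowest, at 35%, for the dimmer *Hk2* probe and the *Pfkm* probe. The 19459 probes of the array with over 40% and at most 45% GC had median log2 ratios of -0.15, -0.12 and -0.03 in the 3 preparations. Outside the range of the 23 probes, the 704 probes with at most 30% GC had median log2 ratios of 0.80, 1.14 and -0.28, and the 486 above 55% had -0.50, -0.39 and 0.09, whose part in the ratios of the enzymes was not tested.

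Other genes of the pathway were taken from a list of 29 isoenzymes, missing steps, regulators and transporters, of which 27 were on the array under these names and *Hkdc1* and *Tigar* were not. By the same thresholds 3 of the 27 were higher in replicating cells, *Hk3*, *Slc2a3* and *Slc16a1*, and 1 was lower, *Aldoc*, against 5.31% and 3.11% of all genes, and no test set these small counts apart. Their median log2 ratio was -0.20, with 10 above 0 and 17 below, on the other side of 0 from the 10 enzymes.

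The largest of these ratios was that of a hexokinase. *Hk3*, a hexokinase best known from myeloid blood cells, read 9.27, 8.99 and 9.26 on the replicating and 7.16, 6.54 and 7.32 on the quiescent arrays. The groups lay far apart, and the log2 ratio was 2.16 with a standard error of 0.32, a 4.48-fold difference and an adjusted p by Benjamini-Hochberg in limma of 0.251. Of the 6 immune markers, *Cd68* and *Cd14* were called, with log2 ratios of 1.32 and 1.18. *Csf1r*, *Ptprc*, *Itgam* and *Cd3e* had ratios of 0.48, 0.38, 0.13 and -0.52 and were not called. The summed signal of the 6 immune markers was 11.90 to 12.27 on the replicating and 11.16 to 12.21 on the quiescent arrays on the log2 scale, with *Ptprc* well above background on 5 of 6 arrays and *Cd3e* on 2. The part of immune cells in the *Hk3* ratio was not tested.

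Among glucose transporters, *Slc2a3*, the high-affinity carrier of neurons, rose by a log2 ratio of 1.20 (limma with Benjamini-Hochberg adjustment, adjusted p = 0.475), and every preparation shared the direction at 1.28, 1.55 and 0.76. The value fell to 0.13 when the median over its probes was taken in place of the brightest one. *Slc2a1* had a ratio of 0.67 and *Slc2a2*, the main carrier of rodent β-cells, one of -0.70, and neither was called. Without preparation 2 they were 0.22 and -1.05, and *Slc2a2* was then called. *Slc16a1*, which carries lactate and pyruvate and is kept off in mature β-cells, rose by 1.25 (limma adjusted p = 0.475) with 8.43, 7.91 and 8.33 against 6.87, 6.24 and 7.80. Its groups did not overlap, but it was on the list because it had been picked out from these same arrays before, and its call is not independent evidence.

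The steps that the 10 enzymes leave out were not uniform. Aldolase C (*Aldoc*), the isoform of brain, fell by 1.61 on the log2 scale (standard error 0.38, limma adjusted p = 0.475), with 8.91, 9.37 and 9.18 in replicating against 10.09, 11.74 and 10.46 in quiescent cells and no overlap. Triose phosphate isomerase (*Tpi1*) had 1.22 with an unadjusted limma p of 0.0512, just outside the threshold, and was higher in all 3 preparations by 0.50, 2.42 and 0.74. Phosphoglycerate mutase 1 (*Pgam1*) had 1.40, of which preparation 2 gave 3.64 and preparation 3 only 0.02. Glucose 6-phosphate isomerase (*Gpi*) had -0.19. The tissue-restricted isoenzymes *Pgam2*, *Eno2*, *Eno3*, *Pklr* and *Gapdhs* had ratios of -0.37, -0.01, -0.52, -0.69 and -0.78, none of them called, and the testis isoform *Pgk2* was well above background on 2 of 6 arrays.

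**Figure D4:**
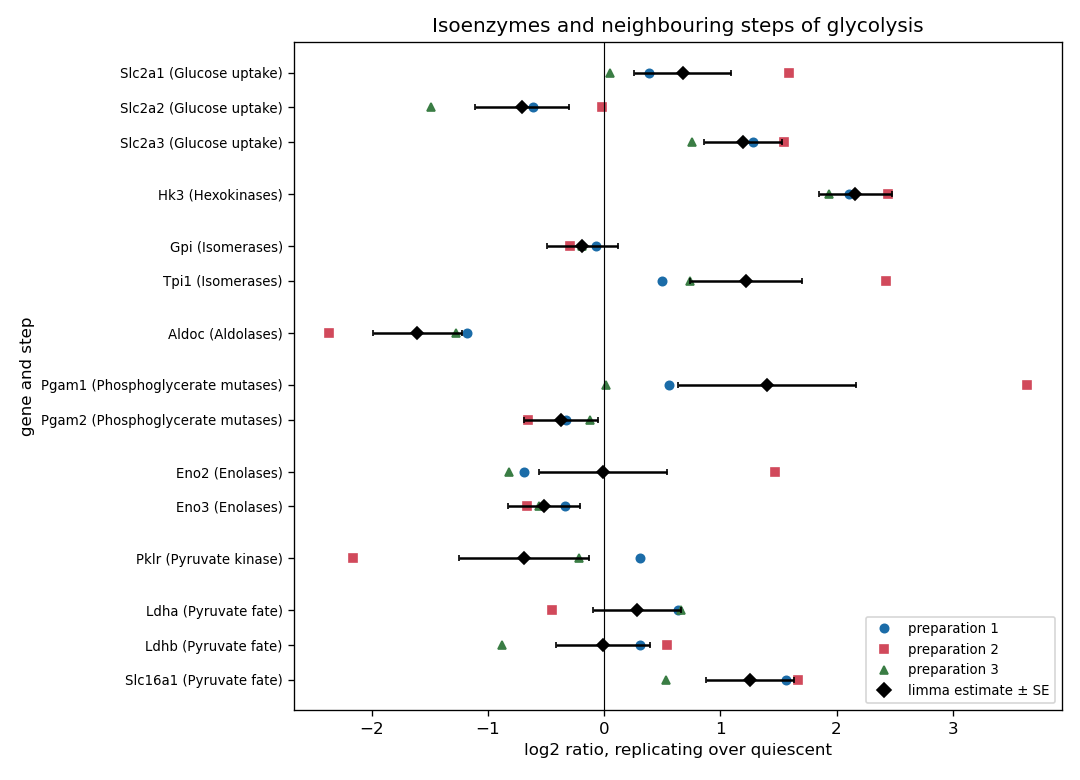
Log2 ratio, replicating over quiescent (x axis), of 15 isoenzymes, neighbouring steps and transporters (y axis, step in brackets), with 1 coloured point per preparation and a black diamond for the limma estimate ± SE. *Hk3* (2.16) and *Aldoc* (-1.61) have the highest and the lowest estimate. All 3 preparations lie on 1 side of 0 for both, as they do for most genes shown, and *Pgam1* lies farthest from 0 in preparation 2.

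Of 10 genes of the pentose phosphate pathway, which draws glucose 6-phosphate away for NADPH and ribose, 1 was called: *Pgd* (6-phosphogluconate dehydrogenase) rose by a log2 ratio of 1.24 with a limma adjusted p of 0.475. The median of the 10 was 0.15. Of 21 measured hypoxia response genes, a group in which many glycolytic genes are targets of HIF1, *Ndrg1* alone was called, at 1.91 (limma adjusted p = 0.475). Their median was 0.52, with 0.38, 1.59 and -0.25 in the 3 preparations, a wider spread between preparations than that of the glycolytic enzymes. *Ndrg1* had 1.34, 3.61 and 0.77 in the 3 preparations, was 1.05 without preparation 2, and lost its call without preparation 1. With 5.31% of all genes called higher, 1 call in each of these lists says nothing particular about them.

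Of the 10 enzymes, *Hk1*, *Aldoa*, *Gapdh*, *Eno1* and *Pkm* kept a ratio above 0, and *Pfkl* one below 0, in each of the 14 alternatives tried. Not all of these could change a ratio. The values recomputed at an offset of 50, the filter on dim probes, no block and the intensity trend left the ratios as they were. The median over a gene's probes could not change *Hk1*, *Aldoa* or *Pfkl*, which had 1 probe each. *Pkm* ranged from 0.47 to 0.74 and *Gapdh* from 0.32 to 0.68. With eBayes given an intensity trend, their unadjusted limma p was 0.0156 and 0.0246, with log2 ratios still under 1. *Hk2*, *Pfkm*, *Pfkp* and *Pgk1* changed sign in at least 1 alternative.

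**Figure D5:**
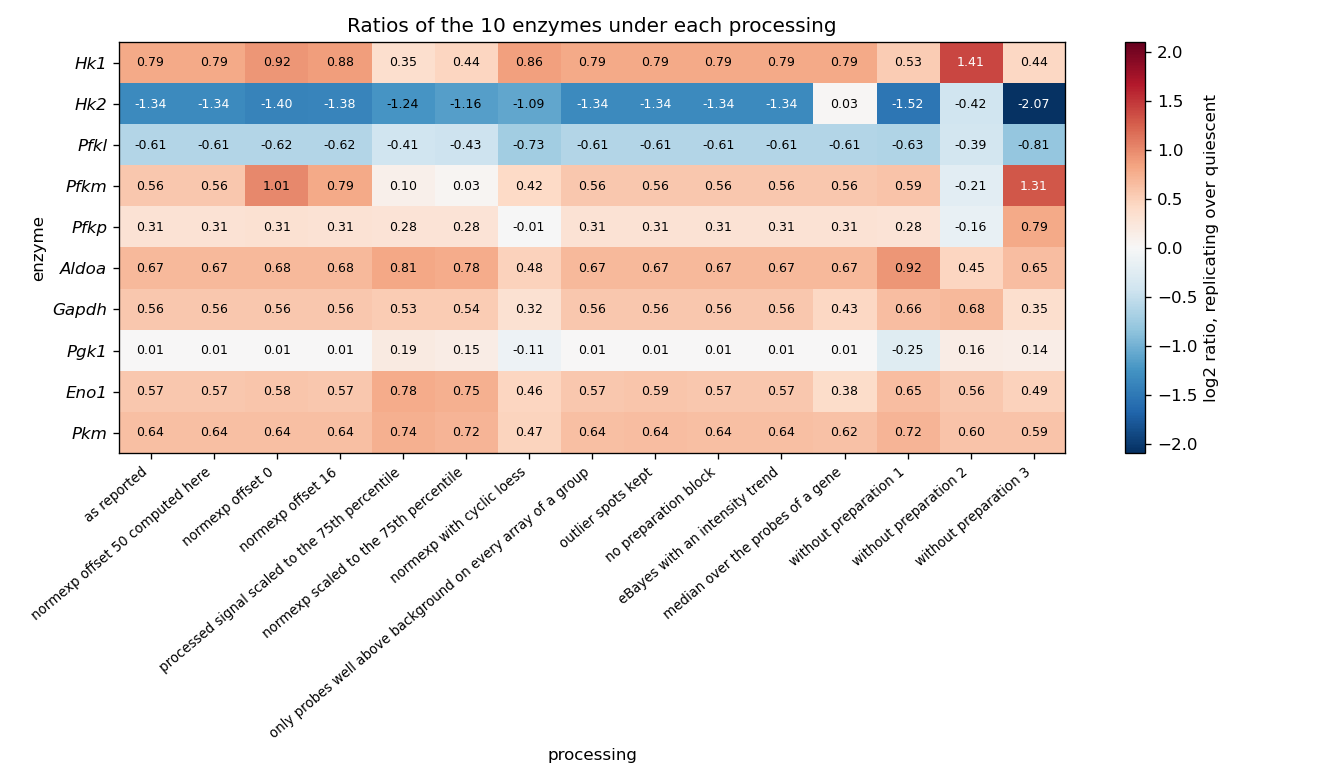
Log2 ratio, replicating over quiescent, of each enzyme (y axis) under the processing as reported and each alternative (x axis), in red above 0 and in blue below 0, with the value printed in each cell. The rows of *Aldoa*, *Gapdh*, *Eno1* and *Pkm* stay red and that of *Pfkl* blue throughout, and *Hk1* ranges from 0.35 to 1.41.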

How the data were processed

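The authors amplified RNA by whole transcriptome amplification, hybridized Cy3-labelled cDNA to Agilent rat arrays, and deposited each array's spot intensity values as read by Feature Extraction 10.7.3.1. They also deposited a table of log2 values per spot, background-corrected with normexp and then quantile normalized. The normexp offset is not given in the sources used here. Recomputed here from the deposited intensity values with an offset of 50, these log2 values differed by at most 0.000245.

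The deposited log2 values were used. Control spots were left out, spots marked as outliers (252 to 1583 per array) were set to missing, and spots of a probe were averaged. A gene is given by its probe with the highest mean over the 6 arrays, matched by the name in the files to RefSeq symbols or synonyms, which 27746 probes carried. limma 3.58.1 in R 4.3.3 was fitted to all 45598 probes with islet preparation as a block, after the paired test of the methods, and p-values were adjusted by Benjamini-Hochberg over all probes. The labels and methods give the pairing, and the correlation across probes of the partners' departures from their group means was 0.0561, 0.242 and 0.258. The fit was tested on simulated data. Genes with a value on all 6 arrays (19761) gave the shares of genes higher or lower in all preparations. All arrays shared 1 slide, so no slide block was fitted, and the number of arrays limits the precision.

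The enzymes and gene lists were chosen with earlier results of these data known. All 10 enzymes and their probes are named; of the other lists, genes past the thresholds, isoenzymes and missing steps are named (some items of these lists are not reported here), with glucose transporters added after their values were seen. Probe positions are those of the files (rn4). Alternatives were the values recomputed here at an offset of 50, other normexp offsets (0 and 16), the processed signal or normexp values scaled to the 75th percentile, and cyclic loess. Further ones were a filter on dim probes, outlier spots kept, no block, an intensity trend, the median over a gene's probes, and each preparation left out. The choice of the dimmer *Hk2* probe was added after seeing the data.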

Additional observations from a re-analysis of the deposited data

How the results depend on the processing

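The count of probes called across the array was 3928, of which 51.5% were higher in replicating cells. Normexp values scaled to the 75th percentile gave 7458 (21.4% higher, 719 at the adjusted p), and the processed signal with that scaling 3855 (17.2% higher). These scalings moved the median of all probes from -0.07 to -0.39 and -0.71, so ratios under them are read against those medians. Left out in turn, preparations 1, 2 and 3 gave 581, 2260 and 10745 calls.

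The count of glycolytic enzymes called went from 0 to 1 with 75th percentile scaling of normexp values (*Hk2*, -1.16), without preparation 2 (*Hk1*, 1.41), without preparation 3 (*Hk2*, -2.07) and, chosen after seeing the data, with the dimmer *Hk2* probe (1.39). It was 0 to 1 over the fits without 1 preparation. The median of the enzymes, 0.56, became 0.32 with the processed signal and 0.36 with 75th percentile scaling. The medians of all probes were then -0.71 and -0.39, against -0.07. With cyclic loess the enzyme median was 0.37, and with the median over probes 0.41. Elsewhere it lay between 0.30 (without preparation 2) and 0.57, with 0.46 without preparation 3. *Hk2* turned to 0.028 with the median over its probes and to 1.39 with its dimmer probe. *Pfkp* turned to -0.0060 and *Pgk1* to -0.11 with cyclic loess. Over the fits without 1 preparation, *Pfkp* ran from -0.16 (without preparation 2) to 0.79, *Pfkm* from -0.21 (without preparation 2) to 1.31 and *Pgk1* from -0.25 (without preparation 1) to 0.16. The cause of these changes was not tested.

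Of the other lists, the 4 calls among glycolysis genes became 2 without preparation 1 and 6 at most without 1 preparation. *Hk3* and *Aldoc* stayed called in all 14 alternatives, with 1.81 to 2.88 and -1.82 to -1.23, while *Slc2a3*, *Slc16a1* and *Pgd* lost the call in 4, 3 and 4 of them. The pentose phosphate count was 0 with the processed signal and 0 to 3 without 1 preparation, and the hypoxia count 0 to 3 without 1 preparation. With no replicate block, the paired arrays taken as independent, 2757 probes were called (68.2% higher, 99 at the adjusted p), no glycolytic enzyme among them. Having 3 preparations with unequal quiescent arrays limits what could be detected.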
